A study of Mus musculus with 13 samples.

Results

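Transcripts that mark glial and vascular cells were followed through a purification of ribosome-bound mRNA from cholinergic neurons of the mouse medial habenula. The 40 genes were chosen by symbol as markers of 6 classes, out of the 22682 gene symbols listed in every library. They comprised 10 astrocyte genes, 7 oligodendrocyte genes, 5 genes of the oligodendrocyte lineage and its precursors, 10 microglial genes, 5 endothelial genes and 3 mural genes. Rgs1, named with the mural genes when the markers were chosen, is known as a gene of immune cells and was counted with the microglia. Each of the 40 symbols was found in all 13 libraries.

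The 6 wild-type immunopurified (IP) libraries came from Chat-TRAP DW167 mice and the 6 knockout IP libraries from Gpr151-KO::Chat-TRAP DW167 mice. Chat-TRAP mice carry a transgene that puts a GFP-tagged ribosomal protein in cells expressing Chat, so that anti-GFP beads pull down polysomes of those cells (translating ribosome affinity purification, TRAP). A single input library held RNA of the whole homogenate from Chat-TRAP DW167 mice, so controls, knockouts and input all carried the transgene. All animals were adults older than 8 weeks, and each library pooled 4 mice, or 3 mice for libraries 852 and 855. The sources used here do not say which Gpr151 allele was used or whether mice were treated, though saline appears in the names of most deposited tables and saccharin in that of the input table.

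As background, astrocytes clear glutamate and turn it into glutamine, oligodendrocytes wrap axons in myelin, microglia are the resident immune cells of the brain, and endothelial and mural cells build its vessels. None of these cells is known to use acetylcholine as a transmitter, and their marker genes are commonly used to judge how pure RNA from tagged neurons is.

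IP libraries held 28375912 to 64388596 reads counted in genes, and the input held 54701790. Levels are given in CPM, the counts of a library scaled to the usual common total over the shared symbols. A count of 0 leaves room for 3 counts, which is 0.0502 to 0.121 CPM in an IP library and 0.0680 CPM in the input (counting error only). Gpr151 stood at 382 to 589 CPM in wild-type and 121 to 212 CPM in knockout IP libraries, with no overlap. The dissected region was marked by its own genes: of 10 medial habenula neuron genes, such as Chat and Chrnb4, 9 were at least 2 times the input level in each wild-type IP library, and Calb2 was not. IP libraries fell into an earlier part (682, 683, 852 and 855) and a later part (1091 to 1094 and 1099 to 1102) whose tables listed different sets of symbols. Wild-type library 1091 and knockout libraries 1099 and 1102 stood apart by high marker levels, and counts and class medians between genotypes are given with and without them.

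Together the 40 markers took 5150 CPM in the input and 454 to 3397 CPM in the IP libraries. Wild-type IP libraries held 610 (library 682), 486 (852), 1878 (1091), 454 (1092), 857 (1093) and 1004 CPM (1094). Knockout IP libraries held 561 (library 683), 687 (855), 3397 (1099), 675 (1100), 1353 (1101) and 2607 CPM (1102). All 12 IP libraries thus lay under the input, and the groups overlapped widely. In these bulk samples, fewer cells of a type and less RNA per cell cannot be told apart.

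**Figure D1:**
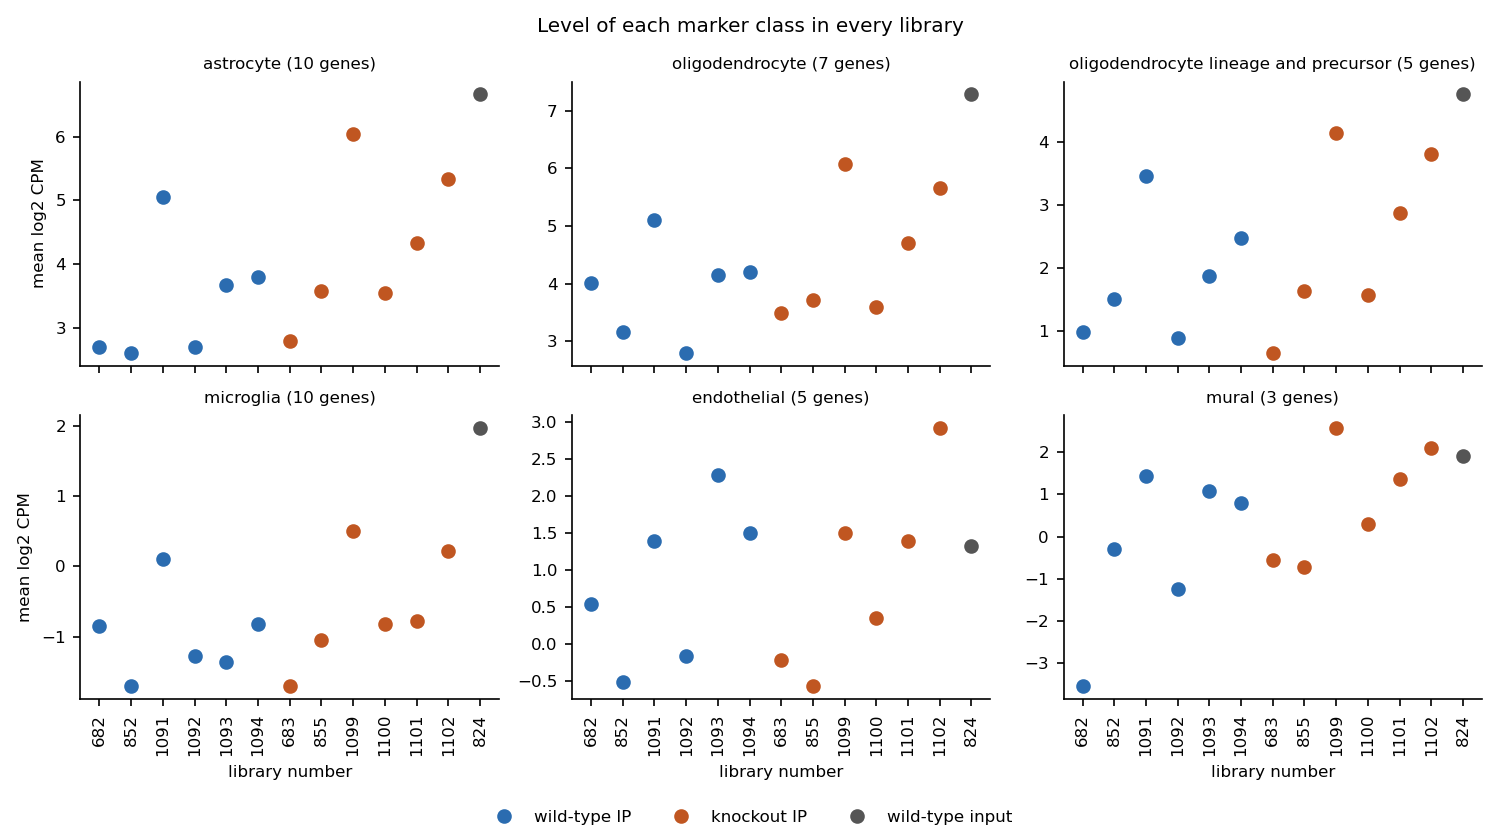
Mean log2 CPM (prior count 2) of the members of each marker class, on the y axis, in every library, numbered on the x axis; blue points are wild-type IP, orange points knockout IP and the grey point the wild-type input. Astrocyte, oligodendrocyte, precursor and microglial levels of all 12 IP libraries lie below the input, whereas endothelial and mural levels lie on both sides of it, and libraries 1091, 1099 and 1102 stand high in most panels.

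The first comparison asks which marker classes were lost during purification, with the single input as reference. With 1 input library there was no test, and a gene was called depleted when, with 1 CPM added throughout, its level in every wild-type IP library was at most 0.5 times that in the input. Calls were limited to genes with 5 CPM in the input or on average in IP, which 30 of the 40 markers reached. Of these 30, 22 were depleted and 0 enriched, while 11.1% of all 11434 measured genes were depleted and 4.71% enriched. By class, 8 of 10 astrocyte, 7 of 7 oligodendrocyte, 3 of 4 lineage and precursor, 4 of 5 microglial, 0 of 3 endothelial and 0 of 1 mural genes were depleted. The 5 measured microglial genes passed the limit only through the input, where they are high, so their count is no support. The same held for Gfap, Aldh1l1, S100b, Gja1, Gjb6, Mog, Cldn11 and Olig2, all depleted, and for Flt1 and Vtn, which were not. Their part of the other counts is no support either. With no limit, 24 of 40 markers were depleted, among them 6 of 10 microglial genes, against 1634 of 18753 genes. Without library 1091, 26 of the 30 measured markers were depleted.

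The median log2 ratio of wild-type IP over input, over all members of a class whether measured or low, was -3.12 for astrocyte genes, -3.41 for oligodendrocyte genes and -3.02 for the lineage and precursor genes. It was -1.77 for microglial, -0.27 for endothelial and -0.99 for mural genes, and -0.07 for all measured genes. The added 1 CPM pulls the ratios of scarce genes toward 0, so classes of unlike abundance cannot be ranked by these medians. With a smaller addition the microglial median was lower, as given further below. Scaling by TMM moved the median of all genes up by 0.215, to 0.14, and changed the balance of calls over all genes from 1274 depleted and 538 enriched to 917 depleted and 703 enriched. With that scaling 19 of 29 measured markers were depleted and 0 enriched. The 10 low markers were Cspg4, Tmem119, Aif1, C1qa, Itgam, Rgs1, Cldn5, Tek, Pdgfrb and Abcc9.

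In a quasi-likelihood test in edgeR over the IP libraries and the input, 15 of the 40 markers were lower in wild-type IP at an adjusted p under 0.05 and 0 were higher. This test takes the spread of the lone input to be that of the IP libraries, and 9.01% of 16211 tested genes were lower by it. Mobp was lower by the widest margin relative to its error, at -3.80 ± 0.49 on the log2 scale (SE; edgeR adjusted p = 0.000219). S100b followed with -3.97 ± 0.73 (SE; edgeR adjusted p = 0.00243).

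Astrocyte transcripts were abundant in the homogenate. Per kilobase of exon, the input held 250.1 CPM of Glul, glutamine synthetase, 189 of Aldoc, the brain form of aldolase, and 92.0 of Slc1a2, the main glial glutamate transporter. S100b, which encodes a calcium-binding protein, had 89.4 CPM in the input against 1.89, 4.97 and 9.69 CPM as lowest, median and highest value of wild-type IP, and 2.50, 6.59 and 20.4 CPM in knockout IP. All 12 IP values lay far below the input, and the median wild-type log2 ratio, -3.92, was the lowest of the class. Glul kept the most, with 831 CPM in the input and 117, 197 and 266 CPM in wild-type IP, a median log2 ratio of -2.07.

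The glutamate transporters Slc1a2 and Slc1a3 escaped the call through 1 library. Slc1a2 had 1209 CPM in the input and 61.0, 128 and 694.5 CPM as lowest, median and highest of wild-type IP. Slc1a3 had 47.6 CPM in the input and 2.575, 4.97 and 30.15 CPM in wild-type IP. In both cases the highest value was that of library 1091, and knockout library 1099 reached 1187 CPM for Slc1a2 and 67.2 CPM for Slc1a3. Of the remaining astrocyte genes, the water channel Aqp4, the filament protein Gfap, the connexins Gja1 and Gjb6, the folate enzyme Aldh1l1 and Aldoc were depleted, with median log2 ratios from -3.60 (Aqp4) to -2.09 (Aldh1l1).

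All 7 oligodendrocyte genes were depleted. Mobp, a myelin protein gene, fell farthest: it had 448 CPM in the input, 17.3, 28.2 and 39.8 CPM as lowest, median and highest of wild-type IP, and 20.5, 33.9 and 84.35 CPM in knockout IP. Its median log2 ratio was -3.95, the lowest among the 40 markers by this measure. Cnp, a myelin enzyme, kept the most of the class, with 329 CPM in the input and 44.7, 75.0 and 159 CPM in wild-type IP (median log2 ratio -2.14). Mbp, myelin basic protein, had 656 CPM in the input and 31.6, 104 and 211 CPM in wild-type IP. The myelin genes Mog, Mag and Mal and the tight-junction gene Cldn11 had median log2 ratios between -3.65 (Mog) and -2.51 (Mag).

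Oligodendrocytes depend on the transcription factor Sox10, and SOX factors bind DNA around the letters ACAAAG. These letters, on either strand, occurred in the 250 bases before the start of 4 of 8 RefSeq promoter windows of the oligodendrocyte class (those of Cnp, Mag and Mobp), and in 16.5% of 32851 mouse windows of that length. Of the other members' windows, 0 of 10 astrocyte and 0 of 3 lineage and precursor windows held them, and those of P2ry12 and Tek did. Over all members it was 6 of 33 windows, or 18.2%, near the share of all mouse windows. The stretches before Mobp (chr9:120149492-120149706, plus strand) and Cnp (chr11:100574689-100574903, plus strand), the genes at the ends of the class's range, are printed from the RefSeq table on GRCm38.p6 up to the annotated gene start. Capitals mark ACAAAG or its complement CTTTGT, 6 times in Mobp and 1 time in Cnp, and in Cnp also CTTCCT, the complement of AGGAAG. A match of letters is a description and shows no binding.
Mobp: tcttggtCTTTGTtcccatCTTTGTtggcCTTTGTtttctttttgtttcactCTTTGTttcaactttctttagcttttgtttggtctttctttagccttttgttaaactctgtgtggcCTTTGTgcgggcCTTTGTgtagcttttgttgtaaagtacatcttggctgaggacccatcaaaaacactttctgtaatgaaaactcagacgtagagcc
Cnp: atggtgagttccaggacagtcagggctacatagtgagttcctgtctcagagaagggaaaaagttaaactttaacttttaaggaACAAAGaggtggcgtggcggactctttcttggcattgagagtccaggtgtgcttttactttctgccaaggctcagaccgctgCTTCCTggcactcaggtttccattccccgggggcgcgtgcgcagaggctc

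Among genes of the lineage and its precursors, the transcription factors Olig1, Olig2 and Sox10 were depleted. The precursor receptor Pdgfra missed the call through library 1091 alone, and the proteoglycan Cspg4, also known as NG2, was under the limit for a call. Olig1 had 122.5 CPM in the input and 4.81, 8.08 and 22.3 CPM as lowest, median and highest of wild-type IP, a median log2 ratio of -3.78. Cspg4 was low everywhere, with 3.945 CPM in the input, 0.463, 2.28 and 6.115 CPM in wild-type IP and up to 11.7 CPM in knockout IP. Its median log2 ratio was -0.60, and IP values lay on both sides of the input. Pdgfra, in contrast to Cspg4, was under the input in all 6 wild-type IP libraries, by a log2 ratio of -0.56 in library 1091 and -3.73 at the other end.

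Microglial transcripts were scarce already in the homogenate, where the 10 genes summed to 52.0 CPM. The purine receptor P2ry12 had 10.7 CPM in the input and 0.249, 0.525 and 2.94 CPM as lowest, median and highest of wild-type IP. It had the lowest median log2 ratio of the class, -2.94. Cx3cr1, the fractalkine receptor, C1qb and C1qc were depleted as well, and Tmem119 and Aif1, under the limit for a call, had log2 ratios under -1 in all 12 IP libraries. Csf1r, the receptor that microglia need for survival, had 7.23 CPM in the input and 0.765, 1.68 and 6.13 CPM in wild-type IP, so that library 1091 alone kept it from the call. Rgs1 had 17 counts in the input and 0 in each wild-type IP library. Itgam, the integrin CD11b, had 2.40 CPM in the input and 0.0712 to 4.48 CPM over the IP libraries. By GENCODE M21, 68.7% of the Itgam exons are shared with Gm49368 on the same strand, so its counts depend on the annotation used.

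The genes for the 3 chains of complement C1q lie side by side on the minus strand of chromosome 4, C1qb from 136880129 to 136886187, C1qc from 136889804 to 136893065 and C1qa from 136895917 to 136898803 (GRCm38). C1qb had 7.26 CPM in the input and 0.127 to 1.60 CPM over the 12 IP libraries, and C1qc had 7.53 CPM in the input and 0.0252 to 1.36 CPM. C1qa had 2.74 CPM in the input (121 counts) and 1.02, 2.70 and 3.35 CPM as lowest, median and highest of wild-type IP, with 1.01 to 3.35 CPM in knockout IP. Its IP values thus lay around the input, with a median log2 ratio of -0.02 that TMM scaling turned to 0.12, while those of its neighbours lay below it in all 12 libraries.

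Microglial genes are known targets of the ETS factor PU.1, whose sites hold AGGAAG. The stretches before C1qb (chr4:136886201-136886450) and C1qc (chr4:136893066-136893164), both on the minus strand, are shown because these neighbours were depleted together. Capitals mark AGGAAG or its complement CTTCCT, which 4 of 6 microglial windows held (C1qb, C1qc, Itgam and P2ry12), against 29.5% of all windows, 4 of 10 astrocyte and 4 of 8 oligodendrocyte windows.
C1qb: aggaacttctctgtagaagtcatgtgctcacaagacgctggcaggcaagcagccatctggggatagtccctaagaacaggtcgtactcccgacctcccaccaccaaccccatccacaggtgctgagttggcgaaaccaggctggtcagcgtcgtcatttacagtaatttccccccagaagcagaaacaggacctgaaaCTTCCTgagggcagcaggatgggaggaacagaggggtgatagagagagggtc
C1qc: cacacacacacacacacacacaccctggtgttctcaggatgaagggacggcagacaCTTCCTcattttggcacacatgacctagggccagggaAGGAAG

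Among endothelial genes, 0 of 3 measured ones were depleted. Pecam1, the adhesion molecule CD31, had 2.06 CPM in the input (91 counts) and 3.34, 5.71 and 7.22 CPM as lowest, median and highest of wild-type IP, with 3.47, 5.34 and 8.27 CPM in knockout IP. All 12 IP values lay above the input. Of the 30 measured markers 1 was above the input in all 12 libraries, against 17.3% of all measured genes, and 22 were below it in all 12, against 29%. That 1 was Pecam1, which passed the limit of 5 CPM only through the IP libraries, where it is high, so its place is no support. Several of the 22 passed only through the input. Of all 40 markers, with no limit, 25 were below the input in all 12 libraries. With edgeR's pooled spread Pecam1 was at 1.60 ± 0.57 over input on the log2 scale (SE; edgeR adjusted p = 0.0723), which misses the threshold.

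Slc2a1, the glucose transporter of the blood-brain barrier, had 34.4 CPM in the input, 23.6, 26.7 and 29.25 CPM in wild-type IP and 21.8, 26.6 and 48.3 CPM in knockout IP. It lay below the input in all 6 wild-type libraries by log2 ratios of -0.52 to -0.23, and above it in knockout libraries 1099 and 1102. Flt1, a VEGF receptor, had 5.46 CPM in the input and 0.483, 2.78 and 9.44 CPM in wild-type IP, so that its values scattered on both sides. Cldn5, a tight-junction protein, and Tek, the angiopoietin receptor, had 0.317 and 0.612 CPM in the input and were too low for a call. ETS factors also act in endothelial cells, and of 4 endothelial windows only that of Flt1 (chr5:147726012-147726261, minus strand) held AGGAAG, in 2 places that are in capitals here.
Flt1: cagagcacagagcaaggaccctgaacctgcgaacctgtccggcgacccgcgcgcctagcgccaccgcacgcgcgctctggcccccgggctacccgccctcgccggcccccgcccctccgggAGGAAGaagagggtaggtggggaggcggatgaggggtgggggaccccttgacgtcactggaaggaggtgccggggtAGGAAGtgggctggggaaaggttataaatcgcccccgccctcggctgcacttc

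The mural genes were the PDGF receptor Pdgfrb of pericytes, the potassium channel subunit Abcc9 and Vtn, vitronectin. Pdgfrb had 2.585 CPM in the input and 0.0277, 0.963 and 1.94 CPM as lowest, median and highest of wild-type IP, below the input throughout. Abcc9 had 3.45 CPM in the input and 0, 0.898 and 3.40 CPM in wild-type IP, the lowest median log2 ratio of the class at -1.25. Vtn had 5.83 CPM in the input and 0.139 to 3.57 CPM in wild-type IP. All 3 were below the input in wild-type IP, but none reached the call.

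**Figure D2:**
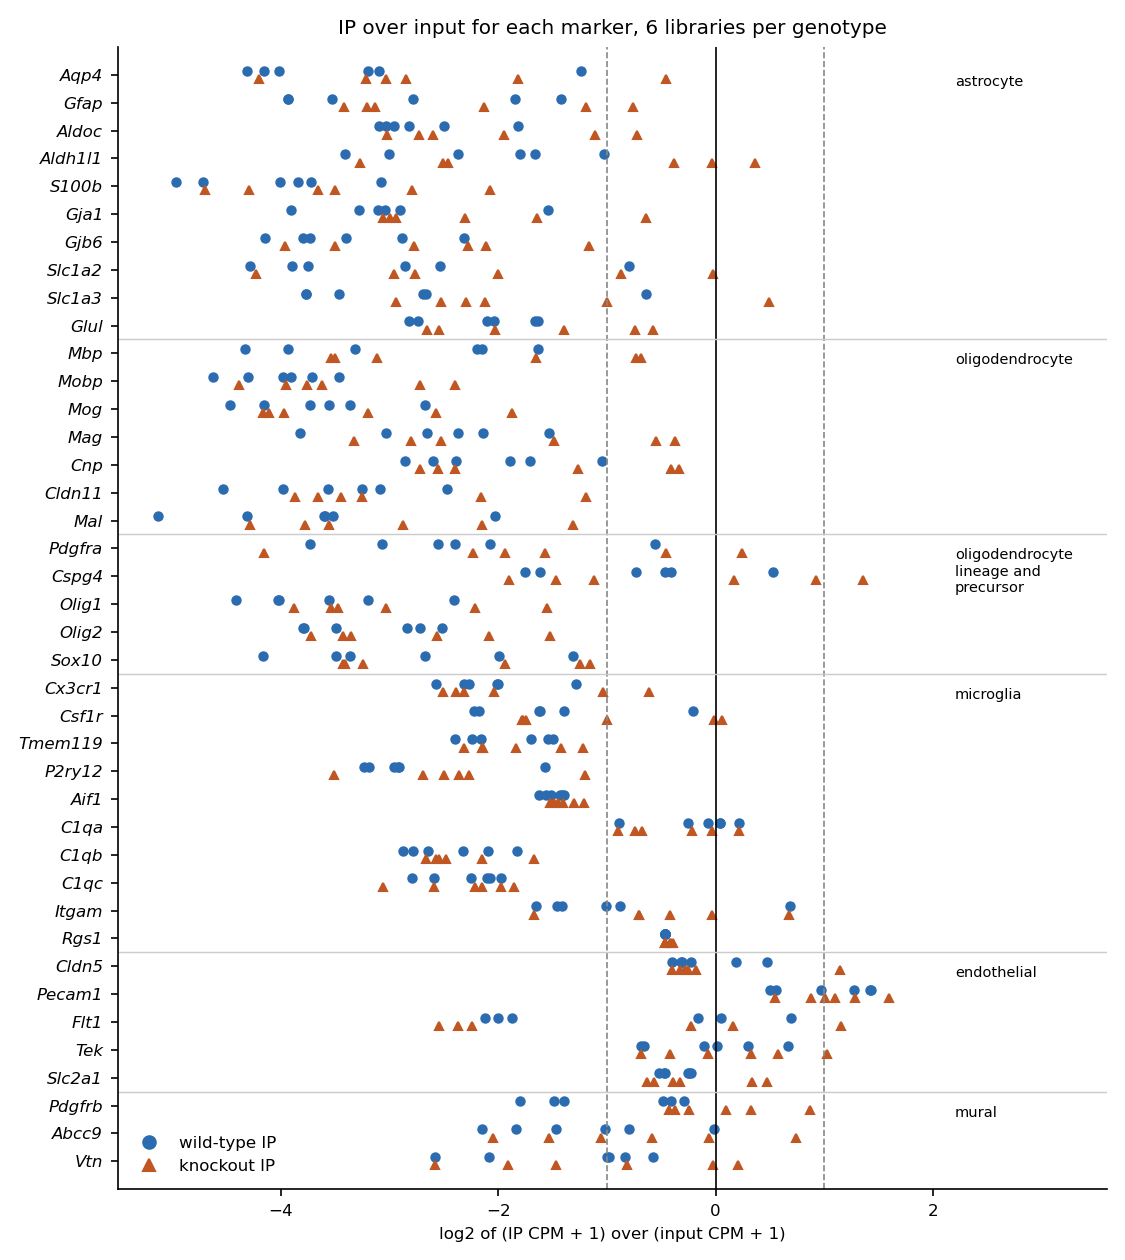
Log2 ratio of IP over input (x axis, 1 CPM added to each) for the 40 markers by class, with a blue circle for each of 6 wild-type IP libraries and an orange triangle for each of 6 knockout IP libraries; dashed lines mark a 2-fold difference. Mobp and S100b lie left of the dashed line in all 12 libraries, C1qa straddles 0 and Pecam1 lies right of 0 throughout.

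Knockout IP libraries, set against the same wild-type input, gave 12 of 30 measured markers depleted and 0 enriched, against 7.11% and 3.41% of 11399 genes. The markers depleted in both genotypes were S100b, Gjb6, Mobp, Mog, Cldn11, Mal, Olig1, Olig2, Sox10, P2ry12, C1qb and C1qc. In knockout, Olig2, P2ry12, C1qb and C1qc passed the limit of 5 CPM only through the input. The counts of the 2 genotypes share the input library, and the rule asks for the ratio in every library, so the highest library decides it. In knockout that was library 1099 or 1102 for 39 of 40 markers, and for C1qa it was library 855.

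A wider set of 78 marker genes of the same 6 classes, not among the 40, was counted by the same rule. Of its 43 measured genes, 28 were depleted and 1 enriched in wild-type IP, against 11.1% and 4.71% of all 11434 measured genes. Many of the 28 passed the limit of 5 CPM only through the input, where they are high, so their count is no support. Examples are Fgfr3, Ntsr2, Mlc1, Opalin, Gpr37, Nkx2-2 and all 5 depleted microglial genes. Depleted were 9 of 15 astrocyte, 11 of 13 oligodendrocyte, 3 of 6 lineage and precursor and 5 of 6 microglial genes. The enriched gene was Esam, an endothelial adhesion molecule, with 1.18 CPM in the input and 8.13 ± 2.58 CPM in wild-type IP (SD, n = 6). Its median log2 ratio was 2.05, and it passed the limit of 5 CPM through the IP libraries, where it is high.

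The second question was which classes vary together from library to library. It was examined over the 8 later IP libraries, since earlier and later ones stood apart, and correlations are given as descriptions over 8 points that share depth, dissection and amplification. Levels of a class are the mean log2 CPM of its members. The 3 classes of macroglia moved as a block: Pearson's r was 0.986 between astrocyte and oligodendrocyte levels, 0.980 between astrocyte and precursor levels and 0.986 between oligodendrocyte and precursor levels. Spearman's rho was 1 for each of these pairs, so that they ordered the 8 libraries identically. Without the 2 libraries farthest from the median, 1092 and 1099, r was 0.970, 0.968 and 0.973.

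Microglial levels followed with r of 0.941 to astrocyte, 0.886 to oligodendrocyte and 0.916 to precursor levels, and mural levels with 0.934, 0.971 and 0.934. Endothelial levels were looser, with r of 0.591 to astrocyte, 0.704 to oligodendrocyte, 0.650 to precursor, 0.402 to microglial and 0.768 to mural levels, and microglial and mural levels had an r of 0.780. Without the 2 farthest libraries these last 3 fell to 0.0942 (1102 and 1099 left out), 0.394 (1102 and 1092) and 0.533 (1102 and 1099). Over the 8 libraries the summed CPM of a class varied 7.75-fold for astrocyte, 8.32-fold for oligodendrocyte and 9.31-fold for precursor genes. It varied 3.88-fold for microglial, 2.42-fold for endothelial and 14.7-fold for mural genes, with the lowest sum in library 1092 and the highest in 1099, or in 1102 for endothelial genes.

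Taken gene by gene, 22 of the 40 markers had an r over 0.9 with the mean of the other 39. Mog was highest at 0.986 and Cnp had 0.984, and among microglial genes Csf1r had 0.979. C1qa and Pecam1 were the only markers below 0. C1qa had 2.84, 2.56 and 2.86 CPM in libraries 1092, 1093 and 1094, and 2.23 CPM in library 1100. In libraries 1091, 1099, 1101 and 1102 it had 1.02, 1.01, 1.23 and 1.34 CPM. C1qa was thus low where the other markers were high, with r = -0.84 and rho = -0.76. Pecam1 showed no such order, with 3.47 CPM in library 1099 and 8.27 CPM in library 1102 and r = -0.22.

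**Figure D3:**
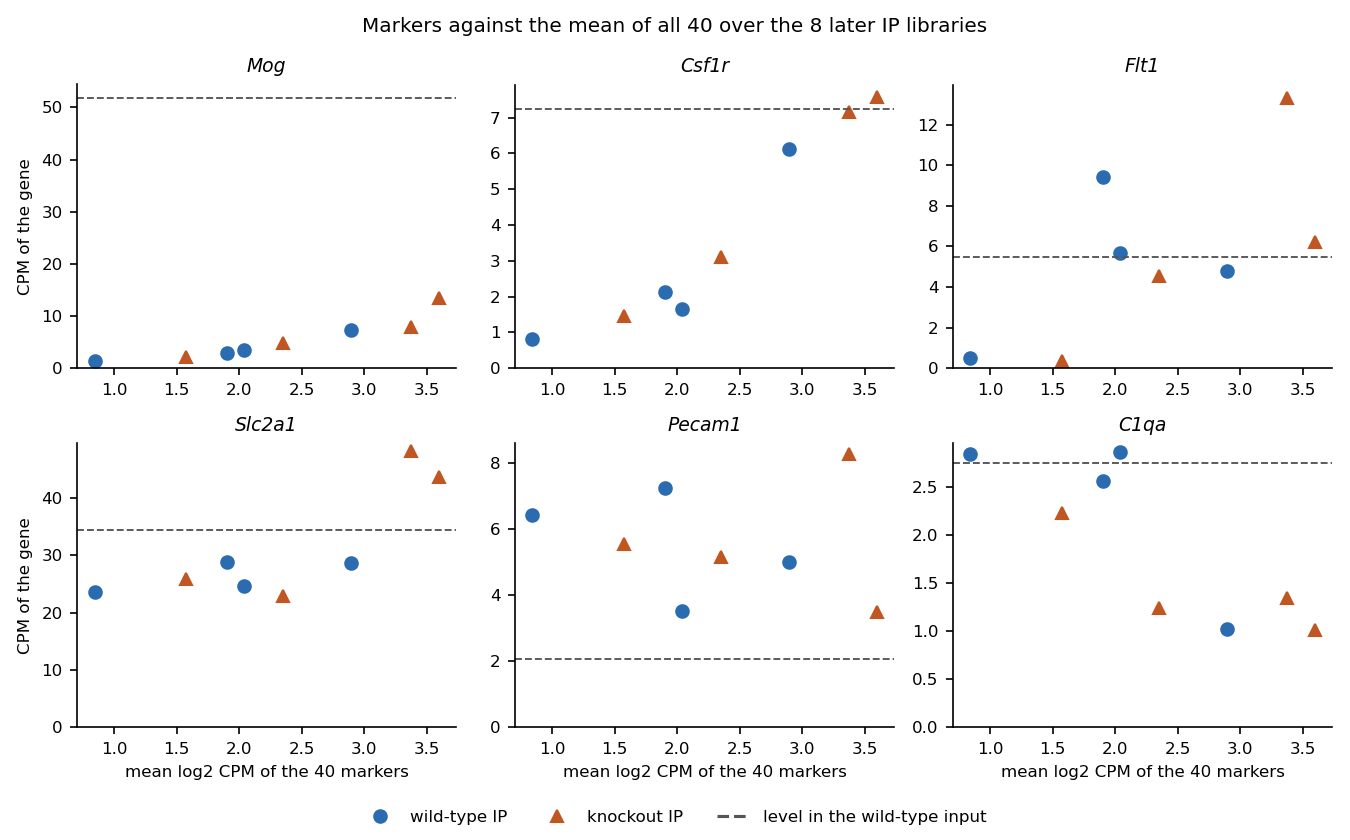
CPM of 6 markers (y axes, from 0) against the mean log2 CPM of all 40 markers (x axes) in the 8 later IP libraries, with circles for wild type, triangles for knockout and a dashed line at the input level. Mog and Csf1r rise from left to right, Slc2a1 is high in 2 knockout libraries, Pecam1 stays above the dashed line and C1qa is lower in the libraries on the right than in those on the left.

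The markers varied against the purified neurons and along with other cells. Medial habenula neuron genes summed to 7536 CPM in library 1100 and 7412 in library 1092, against 3766 in library 1099 and 847 in the input, and their level had r = -0.98 with that of the 40 markers over the 8 libraries. Levels of GABAergic neuron genes (r = 0.90), thalamic and lateral habenula genes (0.98), choroid plexus and ependymal genes (0.90) and fibroblast genes (0.88) had positive r. So did red blood cell genes (0.95, with 3 of 5 genes listed in all libraries). CPM values are shares of a total, so a rise of some genes lowers others.

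Among the later libraries, ratios between markers differed with the lane code in the names of the deposited tables. Libraries 1093 and 1094 share code L003 and libraries 1101 and 1102 share L005, while libraries 1091, 1092, 1099 and 1100 each have a code that no other later library has, and each set of 4 holds 2 wild-type and 2 knockout libraries. The ratio of Aqp4 to Mbp was 0.0669, 0.0739, 0.0612 and 0.0685 in libraries 1093, 1094, 1101 and 1102. In libraries 1091, 1092, 1099 and 1100 it was 0.194, 0.162, 0.175 and 0.174. These ranges do not overlap, and both genotypes lie in each. By the replicate numbers in the same names, libraries 1091, 1092, 1099 and 1100 are numbers 1 and 2. Libraries 1093, 1094, 1101 and 1102 are numbers 3 and 4, so lane code and replicate number cannot be told apart here. The split was seen in the data first and has no test.

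Other pairs of genes divided the libraries alike, but Mobp over Mbp did not. It was 0.170 to 0.202 in the libraries that share a code and 0.189 to 0.546 in the others, which overlap. How many of all gene pairs divide the libraries so was not examined. Slc1a3 over Mbp was 0.0453 to 0.0589 in the libraries that share a code and 0.108 to 0.166 in the others, and Olig1 over Mbp was 0.0448 to 0.0872 against 0.102 to 0.173. Flt1 over Aqp4 went the other way, with 0.357 to 0.961 against 0.0381 to 0.117. Libraries of the first kind thus held more Flt1 and more Mbp for their Aqp4, at high and at low marker sums. The mean log2 level of astrocyte minus oligodendrocyte genes was -0.48 to -0.33 in the first and -0.10 to -0.034 in the second. The 4 earlier libraries, 682, 852, 683 and 855, had Aqp4 over Mbp of 0.0615, 0.108, 0.0768 and 0.149 and spanned most of the gap, although 682 and 683 share a code and 852 and 855 share another. In the input the ratio of Aqp4 to Mbp was 0.1495 and that of Flt1 to Aqp4 0.0558.

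**Figure D4:**
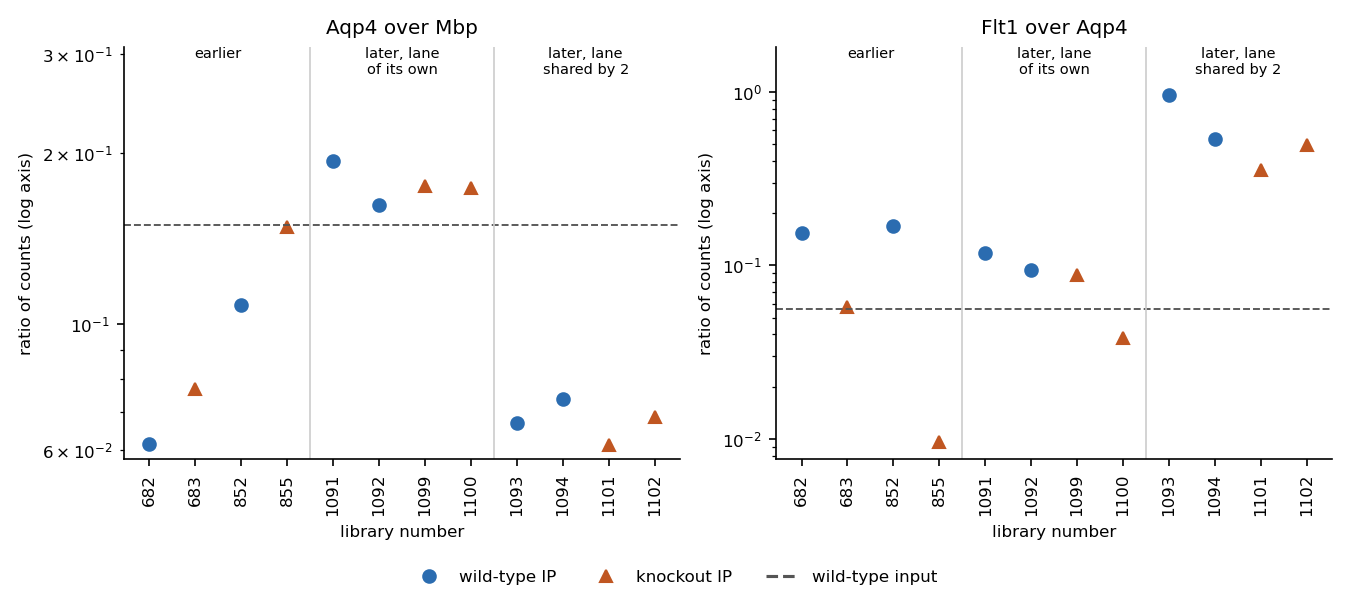
Ratio of Aqp4 to Mbp counts and of Flt1 to Aqp4 counts (log y axes) in each of the 12 IP libraries, with circles for wild type, triangles for knockout and a dashed line for the input. Later libraries that share a lane code lie at 0.0612 to 0.0739 for Aqp4 over Mbp, below the 0.162 to 0.194 of those with a code of their own, and the order is the opposite for Flt1 over Aqp4.

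The third comparison asks whether markers differed between knockout and wild-type IP libraries. Of the 40 markers 37 passed the filter on low counts, which left out Aif1, Rgs1 and Cldn5, and 0 of 37 were called by edgeR at an adjusted p under 0.05, against 0.014% (2) of 14317 genes. At an unadjusted p under 0.05 edgeR had 2 of 37 markers, Pdgfrb and Aldoc, and 3.06% of all genes. DESeq2, which also called 0 markers, had 6 of 40 and 3.85% of all genes. Fold changes were above 0 for 34 markers and below 0 for 3, with a median log2 fold change of 0.67, and over all tested genes the median was 0.002. The median was 0.86 for astrocyte, 0.76 for oligodendrocyte, 0.67 for lineage and precursor, 0.45 for microglial, 0.17 for endothelial and 0.94 for mural genes. Without libraries 1091, 1099 and 1102 these medians were 0.56, 0.18, 0.38, -0.13, -0.17 and 0.62, and without library 1099 alone 0.48, 0.35, 0.33, -0.054, 0.16 and 0.43. The 95% interval included 0 for 35 of the 37.

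The number of markers above 0 and their median changed with the libraries used. Without libraries 1091, 1099 and 1102, 27 of 36 tested markers were above 0 with a median of 0.34. These libraries were picked for high marker levels and 1099 and 1102 are knockout, so that choice partly sets the outcome of leaving them out. Without library 1099 alone it was 31 of 37 with a median of 0.35, without library 1092 the median was 0.47, and without library 1091 it was 0.97 with 13 markers and 7.15% of all genes at an unadjusted p under 0.05. In the later libraries alone 36 of 37 were above 0 (median 0.93), and in the earlier libraries alone 20 of 35 (median 0.10). A test of whether genotype acted differently in earlier and later libraries, as an interaction term, called 0% of 14317 genes in edgeR, with 325 at an unadjusted p under 0.05, among them 1 marker, Pdgfrb. DESeq2 called 2 genes, neither of them a marker, so no marker was shown to differ between the library sets.

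Pairing the libraries changed the calls. The names of the later tables number the libraries 1 to 4 in each genotype, and the earlier libraries form a pair each by their set. What a shared number stands for is not stated, so the later pairs are an assumption. They were taken because same-numbered libraries deviated alike in these same data, least so for number 4 (r = 0.204). In an edgeR fit with these 6 pairs as a block, chosen after the data were seen, 4 of 37 markers were called, all astrocyte genes and all higher in knockout, against 0.685% of 14317 genes (91 higher and 7 lower). At an unadjusted p under 0.05 it had 23 markers and 13.65% of all genes. Markers of other classes missed the threshold narrowly: Mbp, Pdgfrb, Mag and Olig1 had edgeR adjusted p of 0.0665, 0.0686, 0.0814 and 0.0826. The calls thus do not single out astrocyte genes. The median log2 fold change over the markers was 0.74, against 0.67 without pairs.

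Slc1a3, the marker with the smallest p in the blocked fit, was higher in knockout in 6 of 6 pairs. So were Aqp4, Gfap, Gja1, Slc1a2, Glul, Mag and Pdgfrb. The share over all genes was not examined, so these counts of pairs are no support. The values of Slc1a3 are those the fit used and add no further support. In wild type and knockout they were 2.575 and 5.34 CPM (682 and 683), 2.575 and 8.86 (852 and 855), 30.15 and 67.2 (1091 and 1099), 3.40 and 7.42 (1092 and 1100), 6.65 and 10.2 (1093 and 1101) and 6.54 and 23.3 CPM (1094 and 1102). The groups overlapped, but within each pair the knockout library was the higher one. The blocked log2 fold change of Slc1a3 was 1.27 ± 0.16 (SE; edgeR adjusted p = 0.0124). For Slc1a2 it was 0.90 ± 0.16 (SE; edgeR adjusted p = 0.0309), for Gfap 0.80 ± 0.14 (SE; edgeR adjusted p = 0.0309) and for Aqp4 0.84 ± 0.16 (SE; edgeR adjusted p = 0.0386).

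These calls depended on single pairs. Without the pair 1091 and 1099, 0 markers and 1 gene were called, with edgeR adjusted p from 0.0853 (Slc1a3) to 0.240 (Aqp4) for the 4 genes. Without 1092 and 1100 or without 1093 and 1101, Slc1a3 alone was called, without 1094 and 1102 Slc1a2 and Slc1a3, and without 852 and 855 Gfap and Slc1a3. Without 682 and 683 the fit called 17 markers and 476 genes, 3.295% of those tested. Its markers outside the astrocyte class were Mbp, Mobp, Mag, Cnp, Mal, Pdgfra, Olig1 and Pdgfrb. DESeq2 with the same block called 13 of 40 markers and 591 genes, 3.02% of those tested. Outside the astrocyte class these were Mbp, Mag, Pdgfra, Olig1 and Pdgfrb. In the blocked edgeR fit 2 of 5 GABAergic neuron genes (Gad1 and Gad2) and 0 of 10 medial habenula neuron genes were called.

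Aldoc had 71.5, 82.7 and 175 CPM as lowest, median and highest of wild-type IP and 75.1, 130.4 and 373.5 CPM in knockout IP. Knockout libraries 1099 and 1102 lay above all wild-type values and the other 4 among them. Its log2 fold change was 0.78 ± 0.35 (SE; edgeR adjusted p = 0.999), the smallest unadjusted p among astrocyte genes. Aldh1l1 had the largest fold change of the class, 1.36 ± 0.75 (SE; edgeR adjusted p = 0.999), with 0.161, 1.97 and 5.075 CPM in wild-type and 0.277, 4.85 and 14.9 CPM in knockout IP. By GENCODE M21, 11.05% of the Aldh1l1 exons overlap the antisense gene Gm15756, and the labels do not say whether the counting was stranded.

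Among oligodendrocyte genes Mobp had a log2 fold change of 0.64 ± 0.34 and Mag one of 0.98 ± 0.54 (SE; edgeR adjusted p = 0.999 for each). Mag had 1.83, 6.08 and 12.85 CPM in wild-type and 3.00, 9.65 and 29.9 CPM in knockout IP, and 3 knockout values exceeded every wild-type value. In the lineage and precursor class Olig1 had 0.73 ± 0.45 and Pdgfra 0.79 ± 0.60 (SE; edgeR adjusted p = 0.999 for each). For Pdgfra the knockout libraries held both the highest value, 30.7 CPM in library 1099, and the lowest, 0.504 CPM in library 683. In the earlier libraries alone Mobp (-0.08365) and Pdgfra (-0.18) had log2 fold changes below 0.

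Csf1r led the microglial genes with 0.69 ± 0.53 (SE; edgeR adjusted p = 0.999), from 0.765, 1.68 and 6.13 CPM in wild-type and 1.39, 2.29 and 7.59 CPM in knockout IP. Of its exons 15.1% overlap Hmgxb3 on the other strand. C1qa, C1qc and Flt1, named because they were the markers below 0, had log2 fold changes of -0.38 ± 0.32, -0.17 ± 0.56 and -0.18 ± 0.79 (SE; edgeR adjusted p = 0.999 for each). Among the endothelial genes Slc2a1 had 0.26 ± 0.21, with a 95% interval from -0.20 to 0.72, and Tek 0.43 ± 0.78 (SE; edgeR adjusted p = 0.999 for each). Without libraries 1091, 1099 and 1102 both turned below 0, to -0.10 and -0.24.

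Pdgfrb had the smallest p and the largest fold change among the markers. Wild-type IP libraries had 0.0277 (682), 0.282 (852), 1.94 (1091), 0.3625 (1092), 1.56 (1093) and 1.69 CPM (1094). Knockout IP libraries had 1.66 (683), 2.03 (855), 5.56 (1099), 1.77 (1100), 2.84 (1101) and 3.48 CPM (1102). In 4 knockout libraries the value was above all wild-type ones, and 683 and 1100 lay among the higher wild-type values. The log2 fold change was 1.96 ± 0.57 (SE; unadjusted p = 0.00471, rank 33 of 14317 genes, edgeR adjusted p = 0.999), from 1 count in library 682 to 258 counts in library 1099, and it was 2.02 without libraries 1091, 1099 and 1102. It was 1.33 in the later and 3.94 in the earlier libraries alone. DESeq2 gave 2.02 with an adjusted p = 0.0932. Pdgfrb lies on chromosome 18, as do Csf1r, Aqp4, Mbp and Gpr151. The other mural genes, Abcc9 and Vtn, had 0.94 ± 0.64 and 0.66 ± 0.79 (SE; edgeR adjusted p = 0.999 for each).

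**Figure D5:**
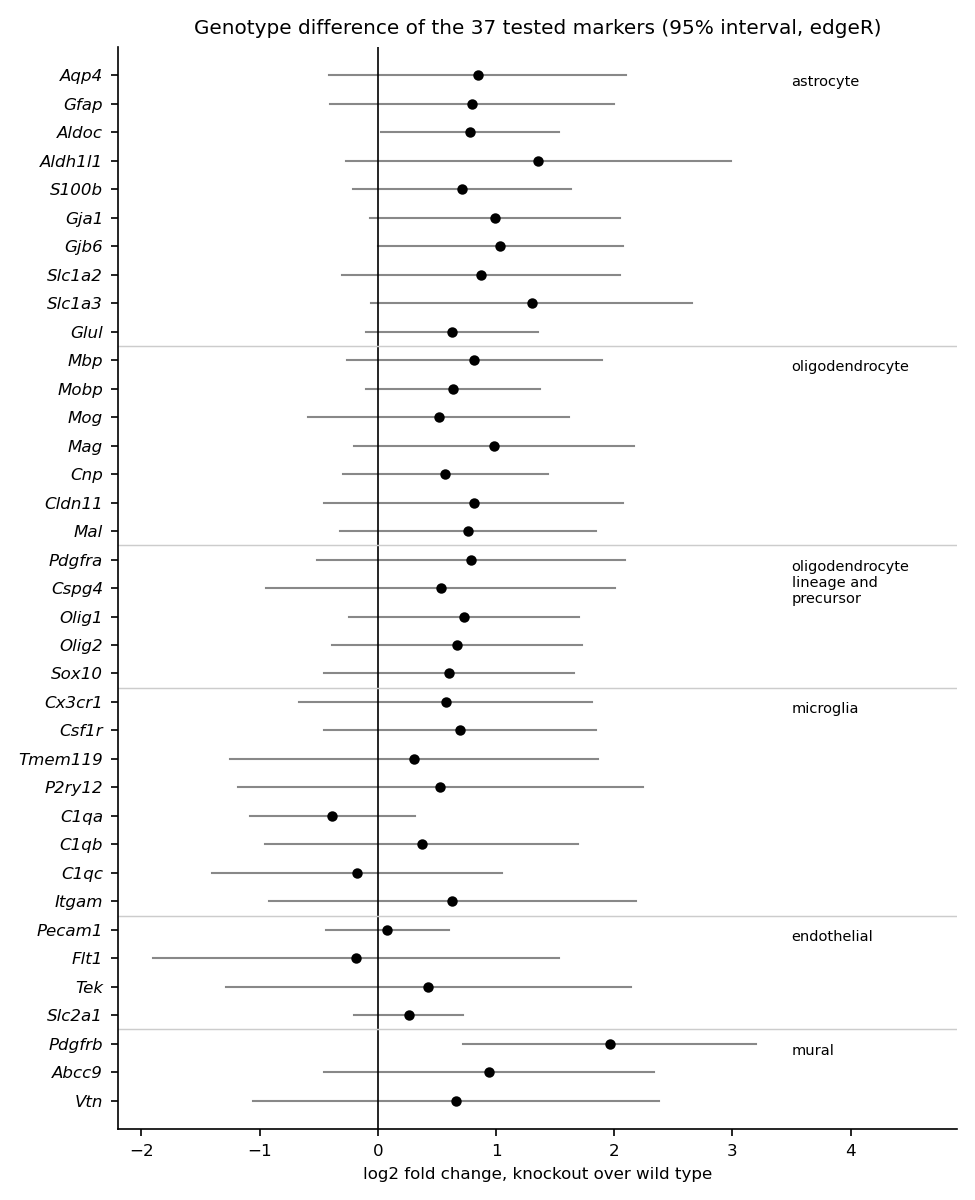
Log2 fold change of knockout over wild type (x axis) with its 95% interval from edgeR, in the fit without pairs, for the 37 tested markers by class. Most points lie right of 0 with intervals that include it, the intervals of Aldoc and Pdgfrb do not, and C1qa, C1qc and Flt1 lie left of 0.

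Genes of other cells were looked at beside the markers, in the fit without pairs. In the wider set 62 of 68 tested genes were above 0 (median 0.59) and 0 were called by edgeR, with 6 at an unadjusted p under 0.05. Its mural genes were split, with 4 of 8 above 0 and a median of -0.11. Also above 0 were 5 of 5 GABAergic neuron genes (median 1.16, all 5 at an unadjusted p under 0.05, summed level 15.9 to 155 CPM in wild-type and 52.3 to 327 CPM in knockout IP) and 5 of 6 thalamic and lateral habenula genes (0.78). So were 4 of 4 choroid plexus and ependymal genes (0.85) and 3 of 3 fibroblast genes (1.11). Of the 10 medial habenula neuron genes, 0 were above 0 (median -0.16), with summed levels of 4942 to 7600 CPM in wild-type and 3766 to 8211 CPM in knockout IP. Their part in the genotype differences of the markers was not tested.

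By class, the genotype difference had the same direction in both sets of later libraries. The mean log2 level of astrocyte genes was higher in knockout by 1.10 in the 4 libraries that share a lane code and by 0.91 in the other 4, and that of oligodendrocyte genes by 1.01 and 0.88. Between the single earlier pairs the astrocyte difference was 0.10 (683 minus 682) and 0.97 (855 minus 852), and the oligodendrocyte difference was -0.53 and 0.54. In the libraries with a code of their own, 1 library of each genotype was high and 1 low: astrocyte levels were 2.70 and 5.05 in wild type and 3.54 and 6.03 in knockout. The ranges of the genotypes overlapped there. In the libraries that share a code, 2 of each genotype, they did not overlap for any class but the endothelial. The classes vary together and the share over all genes was not examined, so this separation is no support. Astrocyte levels in the libraries that share a code were 3.67 to 3.80 in wild type and 4.33 to 5.33 in knockout, and oligodendrocyte levels 4.15 to 4.195 and 4.71 to 5.65. There both wild-type libraries have code L003 and both knockout libraries L005, so that lane and genotype cannot be told apart.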

How the data were processed

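Each library's table, as deposited by the authors, lists raw read counts by gene symbol. The tools named in the submitters' processing notes are HTSeq, DESeq2 and STAR 2.3.0e, with mm10 as build. The labels give no settings, annotation or strand. Reads assigned to no gene stayed out of totals and tests. CPM were computed over 22682 symbols shared by all 13 libraries, and log2 CPM with a prior count of 2. Genotypes were compared over 23857 symbols shared by the 12 IP libraries with edgeR 4.0.16 in R 4.3.3 (filterByExpr, TMM, robust quasi-likelihood test, library set as a term, two-sided, Benjamini-Hochberg threshold 0.05). DESeq2 1.42.0 was an alternative, and others changed scaling, filter, pseudocount and libraries. Only the edgeR genotype fit without pairs was tested on simulated data, in which libraries of a genotype differed by depth and random spread alone. The members and lists were chosen with earlier results of these data known. Genes named with full statistics had the smallest p or the largest fold change of a class, or its highest or lowest IP ratio. The library set had 3 levels: 682 with 683, 852 with 855, and the later libraries. The labels give no replicate numbers, but the names of the later deposited tables do. Deviations from the group means over 14317 genes had r of 0.816, 0.653, 0.438 and 0.204 between same-numbered later libraries, so a fit with these pairs as a block was added. In this check, libraries 1094 and 1102 each had a higher r with a library of another number (0.303 and 0.287). Replicates are separate pools of mice per the labels. Gene positions came from GENCODE M21. RefSeq promoter windows (250 bases upstream, GRCm38.p6) matched 30 of 40 members, and no motif was looked for in the rest.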

Additional observations from a re-analysis of the deposited data

Results flagged for a closer look

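Of 92 sets of 6 values (markers and class levels within a genotype), 2 held a library far from the rest, where chance alone gives about 1 in 20. P2ry12 had 2.943 CPM (167 counts) in wild-type library 1091, and the next wild-type value was 0.554 CPM in library 682. C1qc had 0.02521 CPM (1 count) in knockout library 683, under the limit that a count of 0 allows there, and the next knockout value was 0.4185 CPM. Library 1091 is 1 of the 3 libraries with high marker levels, and library 683 is not.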

How the results depend on the processing

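Markers were called between genotypes in 1 of 24 alternatives, the replicate block, which called 4 markers and 98 genes. None was enriched over input in any of 15. The number of genes called was 12 with DESeq2, 1 with a filter of 1 CPM, 0 in the later libraries, 1 without libraries 1091, 1099 and 1102, and 0 to 2 when 1 library was left out (0 without library 683). DESeq2 called 2 genes for the interaction. Fold changes changed sign for C1qc (0.071) and Flt1 (0.26) with no library set term, for C1qc (0.33) and Flt1 (0.31) in the later libraries, and for Mobp (-0.08365), Pdgfra (-0.18), Slc2a1 (-0.15) and C1qa (0.14) in the earlier ones, where the medians of oligodendrocyte (-0.078), lineage and precursor (-0.16), microglial (-0.37) and endothelial genes (-0.15) were below 0. Without libraries 1091, 1099 and 1102, Slc2a1 (-0.10) and Tek (-0.24) changed sign. With 1 library left out, C1qc ran from -0.46 to 0.20 and Flt1 from -0.80 to 0.084. The cause was not tested. Requiring a 4-fold difference from input, which is stricter by construction, left 8 markers and 315 genes depleted and 183 genes enriched. Knockout IP gave 12 markers and 810 genes depleted. With edgeR's pooled spread 1175 genes were higher. The microglial median ratio was -2.95 with a pseudocount of 0.1 CPM, -0.84 with 5 CPM and -3.03 in edgeR. With library set means removed over all 12 IP libraries, r was 0.970 for astrocyte and oligodendrocyte levels, 0.743 for astrocyte and mural, and 0.406 for microglial and mural. Leaving Rn45s out of the totals was not run for the input, whose table does not list it. A single input and counts under 20 for Rgs1 and Cldn5 there limit what can be said of them.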

Other observations

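Among 10292 genes outside the 40 with a mean of at least 5 CPM, the 10 whose log2 CPM was most like the mean of the markers over the 8 later IP libraries were Daam2, Acadl, Tmem63a, Clmn, Sept8, Adora1, Kalrn, Arhgef10, Lingo1 and Herc3 (r = 0.993 to 0.997). Daam2 ran from 4.01 to 38.8 CPM over these libraries and had 57.2 CPM in the input. The 10 most unlike were Ost4, Cebpzos, Ptrhd1, Pianp, Faxc, Lrrc61, Stra13, Ube2d1, Nhp2l1 and Rfk (r = -0.990 to -0.984). Ost4, a small subunit of the enzyme that glycosylates proteins, ran from 50.1 to 133.6 CPM and had 31.15 CPM in the input, and Faxc was enriched in wild-type IP. These points share depth and amplification, and the lists were picked for their likeness.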
